A study of Arabidopsis thaliana with 4 samples.

Results

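TIM8 (AT5G50810), TIM13 (AT1G61570), PHB3 (AT5G40770) and HSP60-3A (AT3G13860) are nuclear genes of Arabidopsis thaliana whose proteins work in the import, folding and upkeep of mitochondrial proteins. The probe sets of these 4 genes were found by locus, 1 for each gene, so the group holds 4 of the 22746 probe sets of the ATH1 array without its controls. Seedlings were grown for 10 days on agar plates with sucrose under continuous light, and total RNA of their aerial parts was hybridized to the arrays. There were 2 arrays of the eif3h-1 mutant, in which the gene of the h subunit of the translation initiation factor eIF3 is disrupted, and 2 of the wild type. Each experimental repeat gave 1 array of each genotype, from RNA prepared on its own day. The plants of a sample were pooled, a single mutant allele was used, and the study's methods name the ecotype Wassilewskija for reporter plants that carry eif3h-1 but none for the array plants.

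Nearly all mitochondrial proteins are made in the cytosol and cross one or both mitochondrial membranes as unfolded chains. A translocase in the outer membrane (TOM) lets them in, the small TIM proteins of the intermembrane space shield membrane-spanning segments on the way, and the TIM23 channel with its motor pulls matrix proteins through the inner membrane. Peptidases then cut off the targeting sequence, and the chaperonin HSP60 folds the chain in the matrix. TIM8 and TIM13 are partners in one small TIM complex, as known from yeast. PHB3 is a prohibitin, a subunit of large ring-shaped assemblies of the inner membrane, and HSP60-3A is a mitochondrial chaperonin.

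Each probe set has 1 deposited intensity per array, the linear MAS 5.0 signal, and all arrays had been scaled to a common level by the authors. A change is therefore relative to the other transcripts on the array. The median signal of an array lay between 200.4 and 220.4. Probe sets whose log2 signals averaged to a signal of at least 327 were tested with limma, with the repeat as a block, and all 4 genes were among them. Of the tested probe sets, 18.2% passed at an adjusted p under 0.05 in either direction, and 8.49% were higher in the mutant. TIF3H1, the disrupted gene, had a signal of 245.3 and 431.9 in the mutant and of 1363.3 and 1020.5 in the wild type. It fell by 1.86 ± 0.28 on the log2 scale (SE, adjusted p = 0.00707). Its probe set could be named only through the study's lists of lowered polysome loading and lowered transcript level. The latter was chosen on these same arrays, so the fall is not an independent check of the labels.

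TIM13, PHB3 and HSP60-3A were about 2-fold higher in the mutant, and TIM8 did not pass the test. The 3 genes that rose had both mutant arrays above both wild-type arrays, which was also the case for 28.4% of all tested probe sets. A rise of at least 2-fold in both repeats was seen for 1.34% of the tested probe sets, and for TIM13 alone among the 4 genes. These probe sets could be named only through the study's own lists of changed genes. TIM13, PHB3 and HSP60-3A stand on its list of raised transcript levels, which was chosen on these same arrays, so their direction here is not independent evidence. TIM8 stands on a list chosen by polysome loading, from arrays not analysed here.

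**Figure D1:**
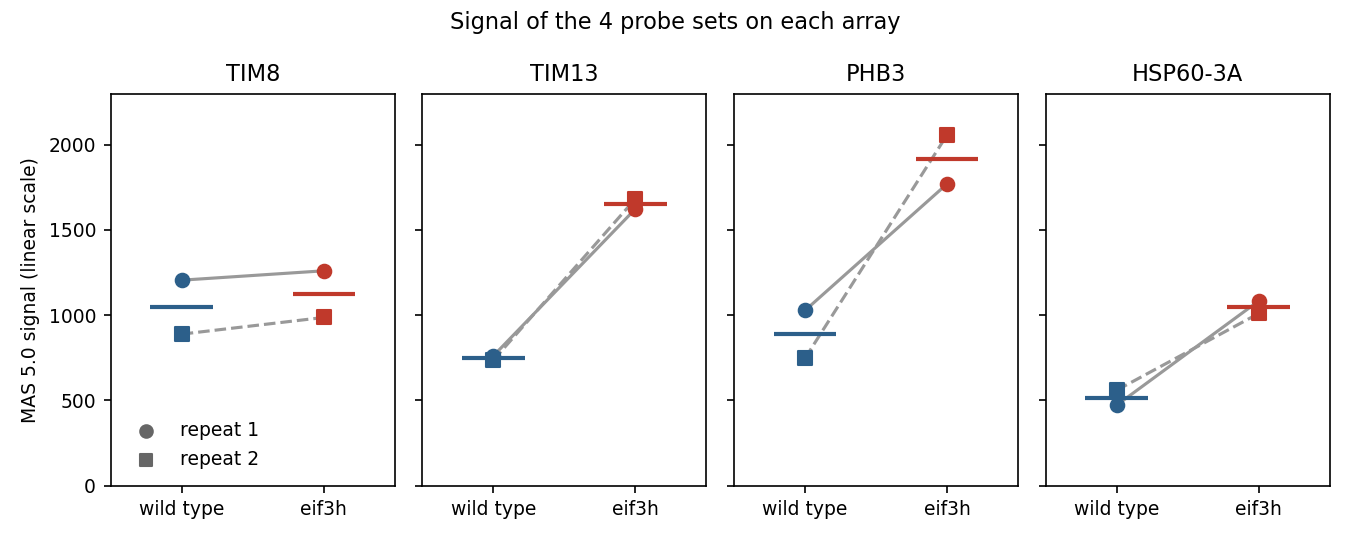
MAS 5.0 signal (linear scale) of the probe sets of TIM8, TIM13, PHB3 and HSP60-3A on each array, for the wild type and the eif3h mutant. Circles are repeat 1 and squares repeat 2, grey lines join the arrays of a repeat, and horizontal bars are the means of 2 arrays. The mutant points lie above both wild-type points for TIM13, PHB3 and HSP60-3A, and the TIM8 points follow the repeat.

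TIM13, on chromosome 1, had the most even values within each genotype among the 4 genes. The mutant arrays of repeats 1 and 2 read 1623.4 and 1682.4, and the wild-type arrays 761.3 and 736.0. The genotypes lay far apart, and arrays of the same genotype were almost level between repeats. The ratio of mutant to wild type was 2.13 in repeat 1 and 2.29 in repeat 2. TIM13 rose by 1.14 ± 0.17 on the log2 scale (SE, n = 2 repeats, adjusted p = 0.00701), a 2.21-fold difference with a 95% interval of 1.67 to 2.92. There were 132 tested probe sets (1.49%) with a higher log2 fold change.

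TIM8, on chromosome 5, whose protein pairs with that of TIM13 in yeast, differed little between the genotypes. The mutant arrays of repeats 1 and 2 read 1260.1 and 986.5, and the wild-type arrays 1205.2 and 888.7. The groups overlapped, since the mutant of repeat 2 lay below the wild type of repeat 1. Within a repeat the mutant was higher each time, by a ratio of 1.05 in repeat 1 and 1.11 in repeat 2. Its log2 fold change, 0.11 ± 0.17 (SE, n = 2 repeats, adjusted p = 0.693), had a 95% interval that ran, in fold, from 0.815 to 1.42. A modest change in either direction is thus within the error. TIM8 had a signal between 888.7 and 1260.1 on all arrays, well above the median of the array.

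The partner genes were set side by side within each repeat. The log2 ratio of TIM8 was lower than that of TIM13 by 1.03 in repeat 1 and by 1.04 in repeat 2. The 95% interval of the log2 fold change ended at 0.51 for TIM8 and began at 0.74 for TIM13. The difference between these genes was not tested, and the levels of their probe sets cannot be compared with each other. TIM13 could be named only through a list of raised transcripts chosen on these same arrays, and TIM8 only through a list of polysome loading. The gap between them is thus not independent evidence.

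PHB3, also on chromosome 5, was higher in both repeats but unevenly. The mutant arrays of repeats 1 and 2 read 1769.8 and 2057.1, and the wild-type arrays 1027.5 and 747.0. Both mutant arrays were above both wild-type arrays, with the highest and the lowest signal in repeat 2. The ratio of mutant to wild type was 1.72 in repeat 1 and 2.75 in repeat 2. On the log2 scale PHB3 rose by 1.12 ± 0.21 (SE, n = 2 repeats, adjusted p = 0.0142), a 2.18-fold difference with a 95% interval of 1.55 to 3.07. The SD of its 2 log2 ratios was 0.48, against a median of 0.185 over all tested probe sets, and it was the largest among the 4 genes.

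HSP60-3A, on chromosome 3, was about doubled as well, with the larger ratio in repeat 1. The mutant arrays of repeats 1 and 2 read 1083.5 and 1010.2, and the wild-type arrays 472.0 and 559.7. The groups did not overlap, and the wild-type arrays differed more from each other on the log2 scale than the mutant arrays did. The ratio was 2.30 in repeat 1 and 1.81 in repeat 2. HSP60-3A rose by 1.03 ± 0.18 on the log2 scale (SE, n = 2 repeats, adjusted p = 0.0116), a 2.04-fold difference with a 95% interval of 1.51 to 2.74.

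TIM13, PHB3 and HSP60-3A were called only in fits with the replicate block, although none of them moved between repeats alike in both genotypes. Without the replicate block none of them passed (adjusted p = 0.0670, 0.0941 and 0.0895), in a fit that called 0.917% of the tested probe sets. With all 22746 probe sets tested none passed either (adjusted p = 0.414 for each), in a fit that called 0 probe sets in either direction. None passed when any 1 array was left out, in fits without the block (adjusted p = 0.0768 to 0.295).

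The repeats moved these genes in different ways. From repeat 1 to repeat 2 the log2 signal of TIM8 went down in both genotypes, with a change of -0.35 for the mutant and -0.44 for the wild type. TIM13 hardly moved, at 0.05 for the mutant and -0.05 for the wild type. PHB3 went in opposite directions, 0.22 for the mutant and -0.46 for the wild type, and so did HSP60-3A, at -0.10 for the mutant and 0.25 for the wild type. The arrays of a repeat share a hybridization day and a scanner, and those of different repeats do not share both. Biological differences between repeats and differences from array processing thus cannot be told apart.

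**Figure D2:**
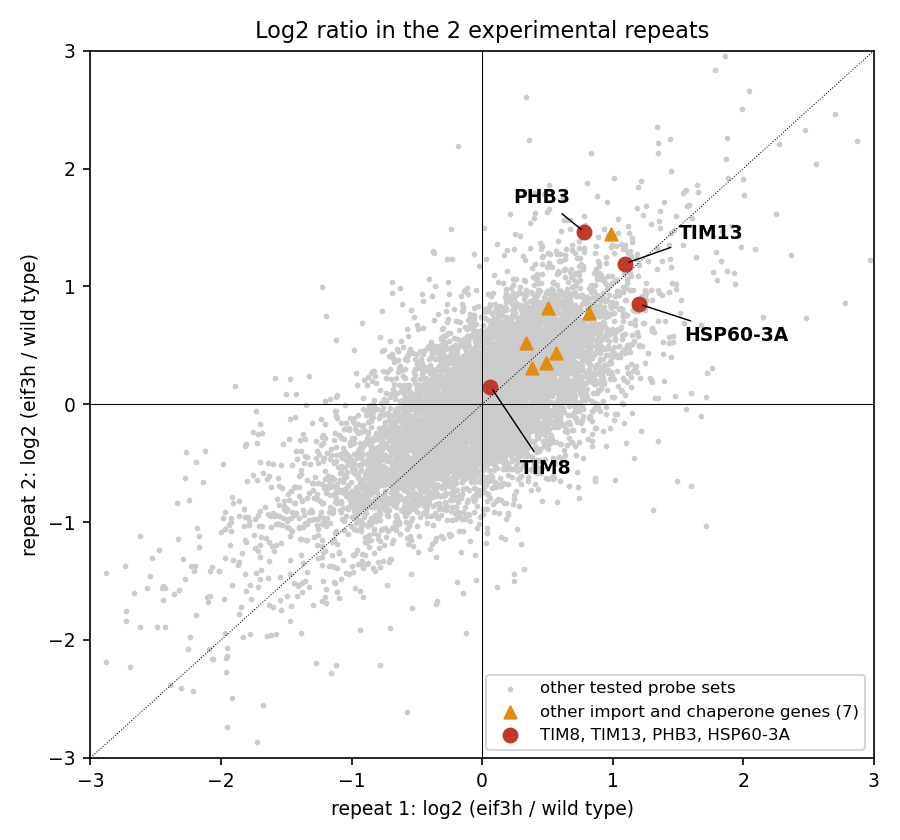
Log2 ratio of eif3h to wild type in repeat 1 (x axis) against repeat 2 (y axis). Grey points are tested probe sets (those beyond the axes are not drawn), triangles are the 7 other tested import and chaperone genes, and red circles are the 4 genes, with equal ratios on the dotted line. TIM8 lies near the centre, TIM13 close to the line, PHB3 above it and HSP60-3A below it.

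The likeness of these patterns was measured as the distance between the 4 log2 signals of each probe set after its mean was taken off, where 0 means the same pattern. TIM13 and HSP60-3A were nearest to each other among the 4 genes, at 0.262, followed by TIM13 and PHB3 at 0.314. PHB3 and HSP60-3A lay 0.556 apart, and TIM8 was 1.05 to 1.11 from the others. Of 4452 tested probe sets named through the platform annotation, the nearest to TIM13 was PYRB (AT3G20330), aspartate carbamoyltransferase of pyrimidine synthesis, at 0.107, followed by AT3G23620 at 0.111 and AT5G41960 at 0.12. PYRB had a signal of 1255.2 and 1234.7 in the mutant and of 549.2 and 581.3 in the wild type. Nearest to TIM8 were AT5G50230 (0.05), AT1G02410 (0.0511) and AT5G09760 (0.0646). For PHB3 they were AT3G08890 (0.124), AT2G25270 (0.139) and AT2G14460 (0.15), and for HSP60-3A AT1G74270 (0.1), AT4G37660 (0.109) and AT1G04990 (0.137). With 4 arrays such a likeness is a description only. TIM13, PHB3 and HSP60-3A were named through a list of raised transcripts chosen on these same arrays, and TIM8 was not. Their closeness to each other and the distance of TIM8 are thus not independent evidence.

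The rest of the import and folding machinery was covered thinly. The lists for the outer membrane, the intermembrane space, the inner membrane, the matrix and the prohibitins with inner membrane proteases hold 66 loci. Only 17 of them could be matched to a probe set, and 11 of these were tested. No other small TIM, prohibitin, HSP60 or mitochondrial HSP70 gene was among them. Where the reference gives only a locus number, its place in a list rests on general knowledge of that number, and no gene name is given.

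Apart from the 4 genes, 7 tested import and chaperone genes remained, of which 3 rose, 0 fell and 4 did not pass the test, where 8.49% of all tested probe sets were called higher. The 3 calls were lost without the replicate block (adjusted p = 0.0767 to 0.251), with all probe sets tested and with any 1 array left out. On all 7 both mutant arrays were above both wild-type arrays, as they were on 28.4% of all tested probe sets. Their median log2 fold change was 0.50, against 0.03 over all tested probe sets, of which 53.1% had a value above 0. AT2G35795, which the study also lists for raised transcript level, is thus not independent evidence.

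The genes that rose are on the inner and the outer membrane lists. AT2G35795, on the inner membrane list, had a signal of 1171.1 and 1563.5 in the mutant and of 590.7 and 576.0 in the wild type. It was more than doubled, by 1.21 ± 0.19 on the log2 scale (SE, adjusted p = 0.00776). AT5G03030, of the same list, had a signal of 1684.6 and 1504.0 in the mutant and of 953.5 and 880.0 in the wild type. Its rise was 0.80 ± 0.17 (SE, adjusted p = 0.0214) and much the same in both repeats, at ratios of 1.77 and 1.71. On the outer membrane list AT5G41685 rose by 0.66 ± 0.18 (SE, adjusted p = 0.0432), with a signal of 1882.3 and 1541.6 in the mutant and of 1323.5 and 876.6 in the wild type. That call was lost with quantile normalization (adjusted p = 0.0521) and with median centring (adjusted p = 0.0566), and its log2 fold change was 0.36 without the wild type of repeat 2.

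The others gave smaller values. The outer membrane loci AT2G19080 and AT5G05520 had log2 fold changes of 0.50 (adjusted p = 0.0817) and 0.43 (adjusted p = 0.126). On the matrix list, MPPBETA, the beta subunit of the peptidase that cuts off targeting sequences, had 0.34 ± 0.17 (SE, adjusted p = 0.198). Its signal was 4293.8 and 4624.8 in the mutant and 3300.9 and 3746.6 in the wild type, high in both and not overlapping. AT1G51980, also on the matrix list, had 0.42 (adjusted p = 0.128).

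A further 6 import and chaperone genes were too dim to be tested. MGE1 (AT5G55200), the exchange factor that resets the matrix HSP70 and so works in the import motor, had a signal of 461.6 and 448.4 in the mutant and of 221.5 and 227.3 in the wild type. The ratio was 2.08 in repeat 1 and 1.97 in repeat 2. In the fit over all probe sets, which called 0 probe sets in either direction, MGE1 did not pass (adjusted p = 0.414). It too could be named only through the study's list of raised transcript levels. AT5G61880, for which the reference gives the synonym PAM16L, had 266.1 and 253.8 in the mutant and 150.2 and 96.3 in the wild type, and AT3G09700 had 441.5 and 379.0 against 229.0 and 269.5. These 3 had both mutant arrays above both wild-type arrays, as did 18.1% of the 13915 untested probe sets. AT1G50400, AT3G44370 and AT1G23100 overlapped between the genotypes. AT1G23100, on the matrix list, was level on all arrays, at 97.6 and 105.0 in the mutant and 103.0 and 91.9 in the wild type.

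**Figure D3:**
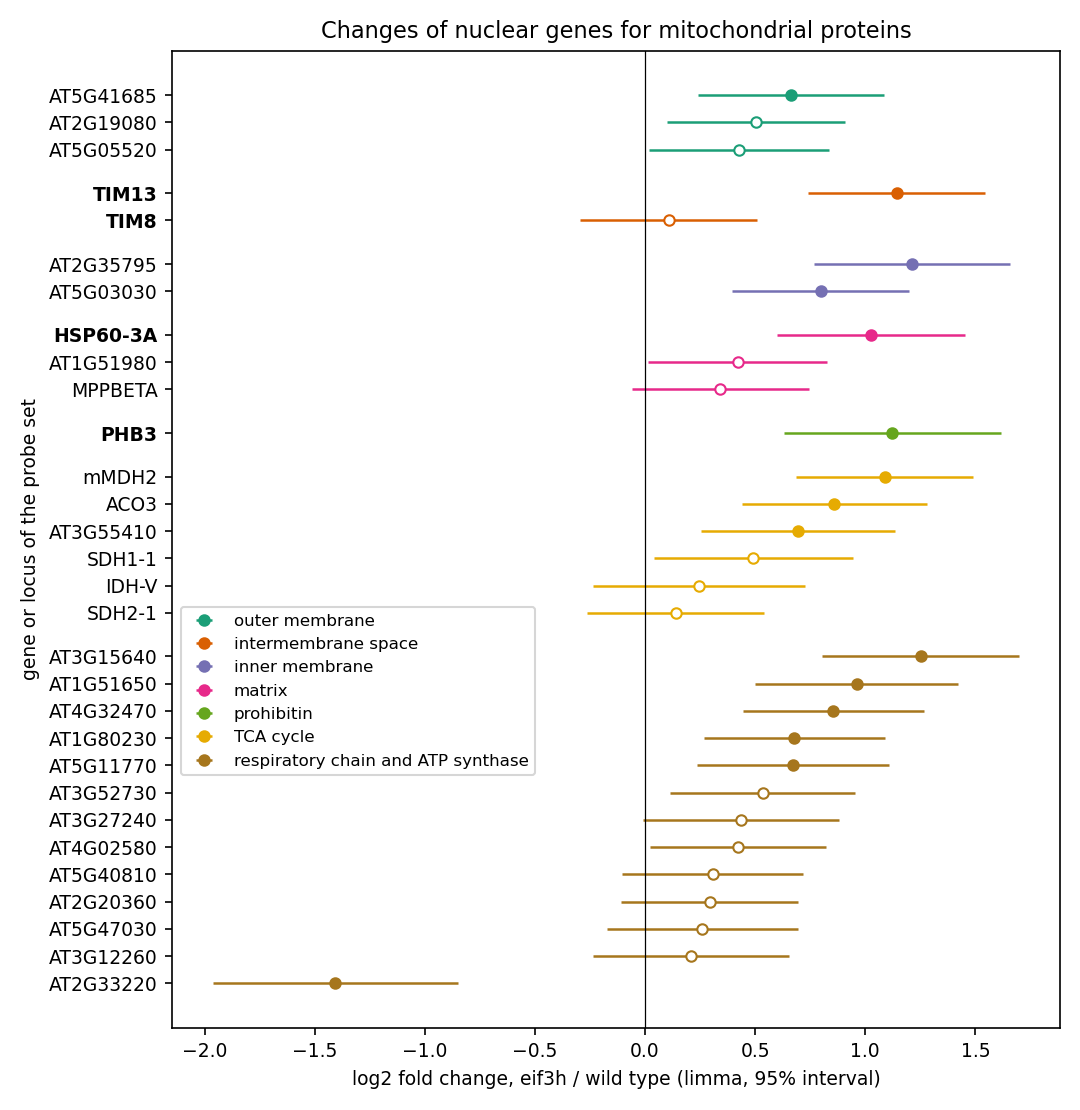
Log2 fold change of eif3h over wild type (x axis), with its 95% interval from limma, for each tested gene of the import and chaperone lists, the tricarboxylic acid (TCA) cycle and the respiratory chain with ATP synthase. Filled circles passed at an adjusted p under 0.05, open circles did not, and bold names mark the 4 genes. TIM8 has the lowest value among the import and chaperone genes, and AT2G33220 is the only one of these genes with a value below 0.

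Genes for metabolism inside the mitochondrion were set beside the import genes. Of 6 tested genes of the TCA cycle, which oxidizes acetyl groups in the matrix, 3 rose, 0 fell and 3 did not pass. Their median log2 fold change was 0.59. Over all tested probe sets 8.49% were called higher and the median was 0.03. Of these, mMDH2 and ACO3 could be named only through the study's lists of changed genes, and of the 4 named through the platform annotation 1 rose, with a median of 0.37. All 3 calls were lost without the replicate block (adjusted p = 0.0895 to 0.173) and with all probe sets tested. The mitochondrial malate dehydrogenase gene mMDH2 rose by 1.09 ± 0.17 (SE, adjusted p = 0.00800), with a signal of 1179.3 and 966.6 in the mutant and of 546.3 and 462.0 in the wild type, so its change was close in size to that of TIM13. The aconitase gene ACO3 rose by 0.86 ± 0.18 (SE, adjusted p = 0.0197). AT3G55410 rose by 0.69 ± 0.19 (SE, adjusted p = 0.0420), a call lost with quantile normalization (adjusted p = 0.0531) and with median centring (adjusted p = 0.0506). mMDH2 stands on the study's list of raised transcript levels, and ACO3 on one chosen by polysome loading.

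Of 13 tested genes of the respiratory chain and ATP synthase, which make ATP at the inner membrane, 5 rose, 1 fell and 7 did not pass, with a median log2 fold change of 0.44, where 8.49% of all tested probe sets were called higher and 18.2% in either direction. All 6 calls were lost without the replicate block (adjusted p = 0.0777 to 0.259) and with all probe sets tested, and that of AT5G11770 also with quantile normalization (adjusted p = 0.0527) and median centring (adjusted p = 0.0556). AT3G15640 rose most, by 1.25 ± 0.19 (SE, adjusted p = 0.00730), from a wild-type signal of 892.9 and 1610.6 to a mutant signal of 2503.1 and 3258.5. It is another gene of the study's list of raised transcript levels, and its log2 fold change was 0.83 without the wild type of repeat 1. AT1G51650 rose by 0.96 ± 0.20 and AT4G32470 by 0.86 ± 0.18 (SE). The log2 fold change of AT1G51650 was 0.58 (adjusted p = 0.536) without the mutant of repeat 1. AT2G33220 fell by 1.41 ± 0.24 (SE, adjusted p = 0.00994), with a signal of 503.0 and 705.2 in the mutant and of 1830.5 and 1362.0 in the wild type.

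In whole aerial parts, fewer cells of a type and less RNA per cell cannot be told apart. Of 6 shoot and 6 root markers, 1 of each could be found. RCA, the Rubisco activase gene of green tissue, had a signal of 28004.5 and 50782.4 in the mutant and of 30586.2 and 58204.1 in the wild type, with a log2 fold change of -0.16 (adjusted p = 0.536). The root hair gene EXPA7 lay at 78.1 and 128.2 in the mutant and at 61.8 and 72.2 in the wild type, all under the limit for testing. RCA, like TIM8, differed more between repeats than between genotypes.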

How the data were processed

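Per the labels and the study's methods, the authors background-corrected and scaled the arrays with the Affymetrix MAS 5.0 software. The deposited values are intensities on a linear scale, without detection calls. Arrays of polysome fractions were not used here. The 64 Affymetrix controls were left out. The tests cover the 8831 probe sets with the highest mean log2 signal, a number taken from the study's filter, which used detection calls and may have kept others.

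In R 4.3.3, limma 3.58.1 fitted the log2 signals with repeat and genotype as terms, and Benjamini-Hochberg adjustment ran over all tested probe sets. The fit has 1 residual and 6.58 prior degrees of freedom. The study's methods state that the 2 biological replicates came from independent RNA preparations on different days, and its filter asks whether each replicate shows a difference. The study also lists its array files by experimental repeat, with total RNA of both genotypes in each. The repeat was taken as a block on these grounds, although the methods do not state a pairing of the plants. Changes from repeat 1 to repeat 2 correlated at 0.53 between the genotypes across probe sets. An exact two-sided permutation test of 2 arrays against 2 reaches 0.333 at the lowest.

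Names of probe sets came from the platform annotation (13436 with 1 gene matched to a locus, 503 with several) and, for 386, only through the study's lists of changed genes. Symbols are those of RefSeq. The genes, lists and tests were chosen with earlier results of these data known. The respiratory chain list and 2 plastid chaperonin genes were added later, after the annotation had been seen. The text names the 4 genes, measured members of their families, and up to 3 called genes in each direction from the other lists; further import genes are named because their counts are small. For likeness, the nearest 3 probe sets of each gene were taken. No sequence is shown, since none was at hand for these genes, and coordinates are left out because no genome build is given in the sources used here. Python 3.11.15, numpy 2.4.6, pandas 2.3.3 and matplotlib 3.10.9 made the summaries and plots.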

Additional observations from a re-analysis of the deposited data

How the results depend on the processing

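TIM13, PHB3 and HSP60-3A kept their direction under every alternative run, but most of these runs could not have reversed it. With both mutant arrays above both wild-type arrays, leaving out 1 array cannot change the sign. Each repeat has 1 array of each genotype, so the block, the probe sets tested and the intensity trend leave the log2 fold change as it is. TIM13, PHB3 and HSP60-3A stayed called with quantile normalization, median centring, the 5000 brightest probe sets, an offset of 50 and an intensity trend (adjusted p = 0.00186 to 0.0246). Without the replicate block the log2 fold changes were as in the paired fit, 1.14 for TIM13, 1.12 for PHB3 and 1.03 for HSP60-3A, but none was called, and with all probe sets tested these values were not called either (unadjusted p = 0.0180 to 0.0414). Leaving out each array in turn, in a fit without the block where the lone array is assumed to vary like the others, gave 1.12 to 1.17 for TIM13, 0.893 to 1.35 for PHB3 and 0.902 to 1.15 for HSP60-3A, with none called (adjusted p = 0.0768 to 0.295). TIM8, which was not called in any fit, ranged from -0.112 (without the wild type of repeat 2) to 0.327, and was -0.0691 without the mutant of repeat 1. Of the import and chaperone lists, with 11 genes tested in the main fit, 6 were called higher. The count was 5 with quantile normalization or median centring and 7 with the 5000 brightest. It was 0 without the block (5 at an unadjusted p under 0.05) and with all probe sets (7). None of the listed genes was called lower in any fit. Among the 6, TIM13, PHB3, HSP60-3A and AT2G35795 stand on the study's list of raised transcript levels, chosen on these same arrays. Of all tested probe sets, quantile normalization called 600 higher, median centring 608, and the fit to the 5000 brightest 728 of 5000. Among all tested probe sets 750 were called higher and 855 lower, against 14 and 67 without the block, 0 and 0 with all probe sets (2683 at an unadjusted p under 0.05), and 15 to 44 and 42 to 139 without 1 array. Median centring moved all log2 fold changes by -0.038. Of 17 other genes followed, the 13 that were called in the main fit all lost their call without the block, and again with all probe sets. AT2G19080 gained a call with the 5000 brightest (adjusted p = 0.0485). The number of arrays limits the precision.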

Other observations

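Genes of related lists outside the import machinery were few. Of the plastid counterparts of HSP60, which fold proteins in the chloroplast, only Cpn60beta2, Cpn60beta3 and Cpn60beta4 were tested, and none of them passed. Cpn60beta2 had a log2 fold change of 0.25 (adjusted p = 0.369), Cpn60beta3 of 0.58 (adjusted p = 0.0549) and Cpn60beta4 of -0.19 (adjusted p = 0.492). Cpn60beta3 had a signal of 600.5 and 407.5 in the mutant and of 398.7 and 275.1 in the wild type, so that within each repeat the mutant was higher by a ratio of 1.51 and 1.48. Of 9 listed genes of the mitochondrial stress response, 3 were found and 1 was tested. NDB2, an alternative NADH dehydrogenase of the inner membrane whose transcript is known to respond to mitochondrial stress, had a log2 fold change of 0.46 (adjusted p = 0.140). Its signal was 431.5 and 550.5 in the mutant and 379.7 and 329.3 in the wild type. The untested AT2G21640 had 178.4 and 203.7 in the mutant and 111.6 and 203.6 in the wild type. AT5G51440, also untested, had 6.2 and 45.2 in the mutant and 57.3 and 31.9 in the wild type. Both overlapped between the genotypes. The locus AT5G19760 of the list of carriers had 0.11 (adjusted p = 0.682), a value close to that of TIM8.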
